A study of Mus musculus with 24 samples.

Results

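The genes described here are 3 metallothioneins (Mt1, Mt2 and Mt3) and 7 genes of the oxidative stress response (Hmox1, Nqo1, Gclc, Gclm, Txnrd1, Srxn1 and Slc7a11), chosen by name from the gene column of a mouse whole-genome expression array. These 10 genes carried 18 of the 41174 probes and 10 of the 27398 gene names on the array. RNA came from L4 and L5 dorsal root ganglia (DRG) of adult male Nfil3-/- (KO) mice and their Nfil3+/+ (WT) littermates on a C57BL/6J background, with 4 samples in each of 6 groups. The groups were WT and KO ganglia from the uninjured side (control) and ganglia taken 2 or 5 days after the left sciatic nerve was cut and sutured. The KO allele lacks Nfil3 in the whole body, since floxed mice were crossed with Cre mice in which the human CMV promoter drives germ-line deletion, and operated mice received buprenorphine. Every array carried 1 sample in its Cy3 channel and a different one in its Cy5 channel, with 2 samples of each group in each dye. The labels do not say whether a control and a lesioned ganglion came from the same animal or whether ganglia were pooled, so the p-values below measure the spread between these samples.

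Metallothioneins are small, cysteine-rich proteins that bind zinc and copper, and Mt1 and Mt2 are induced by metals, glucocorticoids, inflammatory cytokines and oxidants, while Mt3 is expressed mainly in neural tissue. The transcription factor MTF1 induces Mt1 and Mt2 through metal response elements in their promoters. Most of the other genes carry antioxidant response elements, which are bound by NRF2 (encoded by Nfe2l2) with a small MAF partner when the sensor KEAP1 no longer captures it, and which are occupied by the repressor BACH1 in the absence of heme or oxidants. AP-1 dimers, such as those that contain JUN, bind a related site, and NFIL3 is itself a basic leucine zipper repressor that is induced in DRG after nerve lesion.

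Values are log2 intensities after background correction and quantile normalization, so a difference of 1 is a doubling, and they may be compared between samples of 1 probe but not between probes. Each gene is represented by its brightest probe. All 10 brightest probes but that of Slc7a11 were well above background in all 24 samples. A gene was called changed when its limma p-value, adjusted by Benjamini-Hochberg over all 41174 probes, was under 0.05. Between 54.5% and 72.3% of probes were well above background in a sample and none of the spots was saturated. In the check of the knockout, both Nfil3 probes were well above background in all WT samples, and in the KO groups in 1 of 4 control, 2 of 4 day 2 and 2 of 4 day 5 samples. KO control replicate 4 had higher Nfil3 signals (6.76 and 7.66 at its 2 probes) than the other KO controls (3.55 to 4.10 and 2.99 to 4.39), and its label fields give both an uninjured and a day 5 state. It was kept as a control by its title, and calls that were lost without it are named.

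The reference promoters of the 3 genes with the largest log2 differences show which of these elements lie near their start sites. Sequences are from RefSeq (GRCm38.p6), 5′ to 3′ on the plus strand and ending at the base before the listed start. Capitals mark matches on either strand to the metal response element core (TGCACNC or TGCGCNC), the antioxidant response element core (TGACNNNGC) and the AP-1 site (TGANTCA). Mt2 covers chr8:94172368-94172617 and Srxn1 covers chr2:152105274-152105523. For Mt1, whose RefSeq gene model starts upstream of this listed start, only chr8:94179059-94179088 is shown.
Mt1: cccgctgTGCACACtggcgctccagggagc
Mt2: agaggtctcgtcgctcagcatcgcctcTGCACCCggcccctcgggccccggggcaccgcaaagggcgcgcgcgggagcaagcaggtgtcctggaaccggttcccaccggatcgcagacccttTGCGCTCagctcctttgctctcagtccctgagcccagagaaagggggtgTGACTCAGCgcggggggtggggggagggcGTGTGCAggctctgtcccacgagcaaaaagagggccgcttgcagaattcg
Srxn1: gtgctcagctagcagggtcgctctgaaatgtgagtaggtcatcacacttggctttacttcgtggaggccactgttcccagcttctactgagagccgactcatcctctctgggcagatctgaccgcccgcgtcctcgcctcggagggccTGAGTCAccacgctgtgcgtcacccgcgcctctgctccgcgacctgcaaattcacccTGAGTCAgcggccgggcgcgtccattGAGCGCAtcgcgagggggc

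The Mt2 stretch held metal response element cores at 3 places and the Srxn1 stretch held AP-1 sites at 2 places. In Mt2 an AP-1 site and an antioxidant response element core overlapped, both from base -79, counted back from the start. In Srxn1 the AP-1 sites began at bases -102 and -45, a metal response element core began at base -19, and an antioxidant response element core lay after the start, in bases 29 to 37. The AP-1 site at base -45 is followed by GC. It departs from the antioxidant response element core only by a G in place of the C after TGA. These are matches of letters, and no binding was measured.

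Most of these genes were called in the lesion comparisons. Over both genotypes, 8 of the 10 genes passed the F test for lesion, against 26.3% of all genes, and the exceptions were Hmox1 and Slc7a11. All genes, here and below, include many near background. The 10 genes apart from Slc7a11 were well above it in every sample, so these shares do not compare genes of like signal. In WT ganglia at day 2, 4 genes were higher than in control ganglia (Mt1, Mt2, Txnrd1 and Srxn1) and 1 was lower (Gclc), with 11.2% of all genes called in that comparison, 5.15% higher and 6% lower. In KO ganglia at day 2 the same 4 genes were higher and Gclc was lower, with 11.9% of all genes called, 5.51% higher and 6.36% lower. At day 5 Txnrd1 and Srxn1 were higher and Nqo1 and Gclc lower in WT, where 13.7% of all genes were called, 6.39% higher and 7.35% lower. In KO at day 5 the same 4 genes were called in the same direction and Gclm was lower besides, where 12.7% of all genes were called, 6.12% higher and 6.62% lower. Control and lesioned samples did not overlap for 5 of the 10 genes in WT at day 2 (16.9% of all genes), 5 in WT at day 5 (20.1%), 5 in KO at day 2 (14.3%) and 6 in KO at day 5 (20.2%). The median log2 difference over all genes lay between -0.03 and -0.01 in these 4 comparisons. In these whole ganglia, fewer cells of a type and less RNA per cell cannot be told apart.

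**Figure D1:**
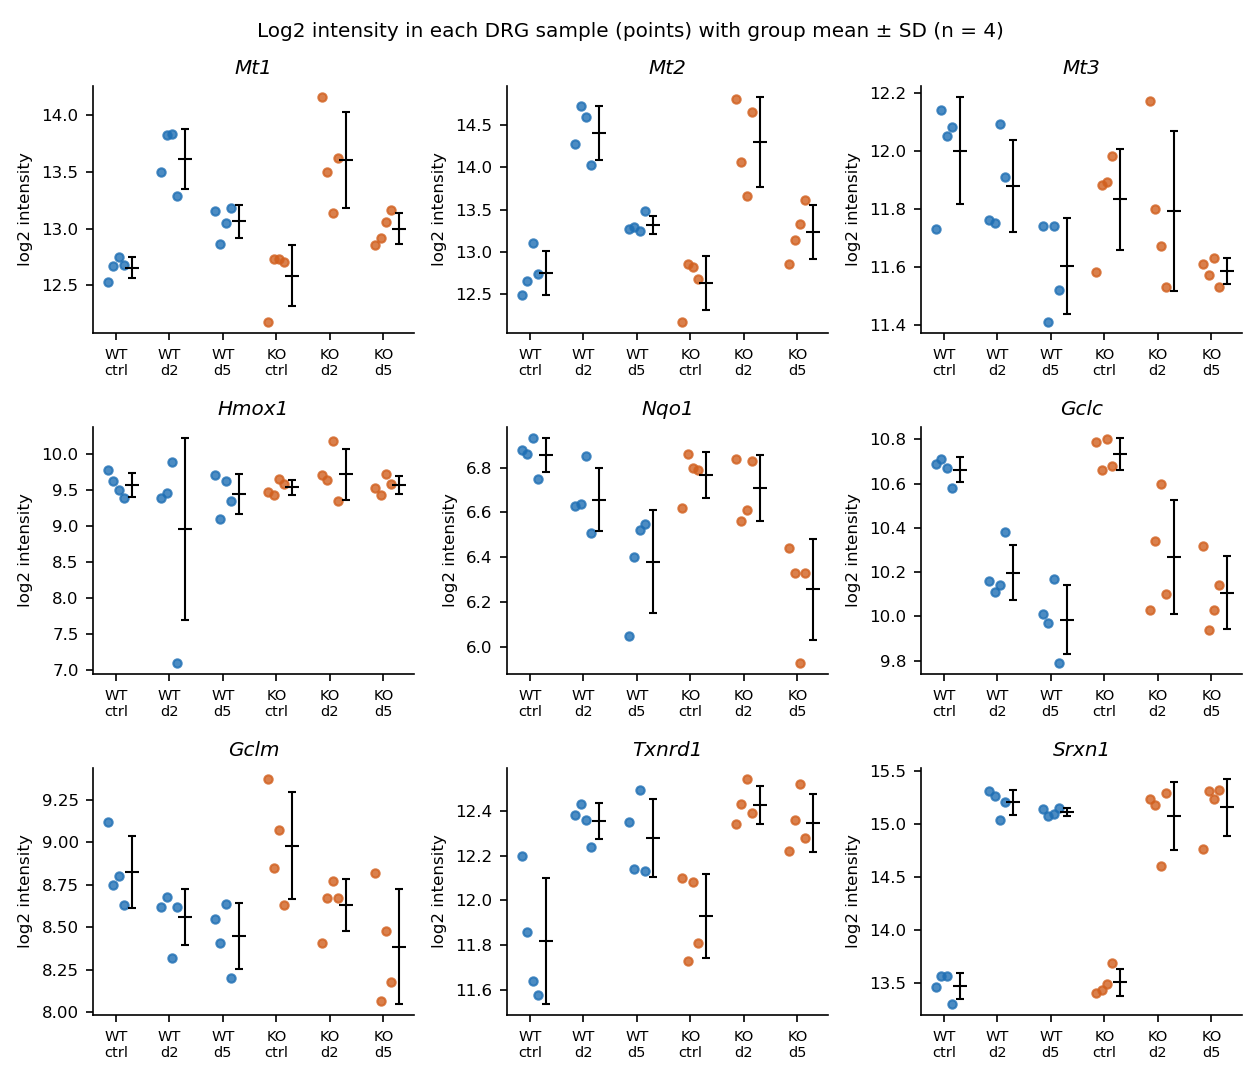
Log2 intensity of the brightest probe of 9 genes in each of the 24 DRG samples (points, WT blue, KO orange; ctrl is the uninjured side, d2 and d5 are days 2 and 5 after lesion), with the group mean and SD (n = 4) in black; each panel has its own vertical scale, which does not start at 0. Srxn1 runs from 13.30 to 13.69 in the control samples and from 14.60 to 15.32 after lesion, Mt1 and Mt2 are highest at day 2, and 1 WT day 2 sample of Hmox1 stands at 7.10.

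Mt2, a zinc-binding metallothionein, rose at day 2. Its log2 intensities were 12.49, 12.65, 13.11 and 12.74 in WT control ganglia, 14.28, 14.73, 14.60 and 14.03 at day 2, and 13.27, 13.29, 13.25 and 13.48 at day 5. In KO ganglia they were 12.17, 12.85, 12.82 and 12.68 in controls, 14.81, 14.07, 13.66 and 14.66 at day 2, and 12.86, 13.14, 13.33 and 13.62 at day 5. Every day 2 sample stood above every day 5 and control sample of its genotype, and every day 5 sample above every control. The increase at day 2 was 1.66 ± 0.23 (SE) in WT, a 3.16-fold change with an adjusted p of 5.85e-05, and 1.67 ± 0.23 in KO, a 3.19-fold change with an adjusted p of 5.21e-05.

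At day 5 the Mt2 difference from control was 0.57 in WT (adjusted p = 0.123) and 0.61 in KO (adjusted p = 0.10), and neither passed the threshold, while with the slide as a block both did (adjusted p = 0.0402 and 0.0433). With both genotypes averaged it was 0.59 ± 0.16 with an adjusted p of 0.0109, in a comparison that called 23.1% of all genes. Mt2 was the only 1 of the 10 genes called between day 5 and day 2. It fell by 1.09 in WT (adjusted p = 0.0292; 0.734% of all genes called) and by 1.06 in KO (adjusted p = 0.0282; 0.996% of all genes called). This call rested on few samples: in WT no gene of the set was called when any of day 5 replicates 1 to 4 or day 2 replicates 1 to 3 was left out or with the slide as a block, and in KO none was called without day 5 replicate 1, 2 or 3 or day 2 replicate 1 or 4, while 2 were called without day 2 replicate 3. Samples of the 2 days did not overlap for 3 genes in WT (6.23% of all genes) and 2 in KO (5.64%).

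Mt1, which lies beside Mt2 on chromosome 8, moved in the same direction at day 2. Its brightest probe (chr8:96704011-96704070, mm9) was spotted 10 times on each array, and the spots of a sample had a median SD of 0.19. WT ganglia had 12.53, 12.67, 12.75 and 12.68 in controls, 13.50, 13.83, 13.84 and 13.29 at day 2, and 13.16, 12.87, 13.05 and 13.18 at day 5. Mt1 log2 intensities in KO ganglia were 12.18, 12.73, 12.73 and 12.71 in controls, 14.16, 13.50, 13.14 and 13.62 at day 2, and 12.86, 12.92, 13.06 and 13.17 at day 5. All lesioned samples were above the controls of their genotype, and KO day 2 replicate 3 (13.14) fell among the day 5 samples.

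The day 2 increase of Mt1 was 0.96 ± 0.18 in WT (1.95-fold, adjusted p = 0.00102) and 1.02 ± 0.18 in KO (2.03-fold, adjusted p = 0.000563). At day 5 the differences of 0.41 and 0.42 did not pass the threshold (adjusted p = 0.151 in each genotype), and averaged over both genotypes the difference was 0.41 ± 0.12 with an adjusted p of 0.0189. A second Mt1 probe (chr8:96703844-96703903) had group means from 5.52 to 6.14 and was called in none of these comparisons. When the 2 probes were averaged, the day 2 differences were 0.56 in WT (adjusted p = 0.113) and 0.67 in KO (adjusted p = 0.0505), so the Mt1 call belongs to the bright probe.

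Mt3, the neural metallothionein of the same cluster, did not rise. It had 11.73, 12.14, 12.05 and 12.08 in WT controls and 11.74, 11.41, 11.74 and 11.52 at day 5, and in KO 11.58, 11.88, 11.89 and 11.98 in controls and 11.61, 11.57, 11.63 and 11.53 at day 5. Control replicate 1 of each genotype overlapped the day 5 samples. The day 5 difference was -0.40 in WT (adjusted p = 0.0512) and -0.25 in KO (adjusted p = 0.291), and over both genotypes Mt3 fell by 0.32 ± 0.09 (adjusted p = 0.0147). Within the 2 slides that held both WT groups, the day 5 difference was 0.00 on slide 1 and -0.60 on slide 3.

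Srxn1 encodes sulfiredoxin, which restores peroxiredoxins that have been over-oxidised by peroxide. WT ganglia had 13.46, 13.56, 13.56 and 13.30 in controls, 15.31, 15.26, 15.04 and 15.21 at day 2, and 15.14, 15.07, 15.09 and 15.15 at day 5. Srxn1 in KO ganglia had 13.40, 13.43, 13.49 and 13.69 in controls, 15.23, 15.18, 14.60 and 15.29 at day 2, and 14.76, 15.31, 15.23 and 15.32 at day 5. The lowest lesioned sample was well above the highest control in either genotype, and the days overlapped.

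The increase of Srxn1 over control was 1.74 ± 0.14 at day 2 and 1.64 ± 0.14 at day 5 in WT (3.33-fold and 3.12-fold, adjusted p = 3.75e-08 and 5.80e-08). In KO it was 1.57 ± 0.14 and 1.65 ± 0.14 (2.98-fold and 3.15-fold, adjusted p = 1.65e-07 and 5.40e-08). Over both genotypes the 3 Srxn1 probes gave 1.66, 1.69 and 1.71 at day 2 and 1.65, 1.48 and 1.48 at day 5. At the brightest probe, day 5 minus day 2 was -0.09 in WT (95% confidence interval -0.39 to 0.20) and 0.08 in KO (-0.21 to 0.37), where Mt2 had fallen. The other 2 probes gave -0.23 and -0.22 in WT and -0.20 and -0.24 in KO, none of them called.

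Txnrd1, the cytosolic thioredoxin reductase that hands electrons from NADPH to thioredoxin, rose at both days by a smaller amount. WT ganglia had 12.20, 11.86, 11.64 and 11.58 in controls, 12.38, 12.43, 12.36 and 12.24 at day 2, and 12.35, 12.14, 12.49 and 12.13 at day 5. Txnrd1 in KO ganglia had 12.10, 11.73, 12.08 and 11.81 in controls, 12.34, 12.43, 12.54 and 12.39 at day 2, and 12.22, 12.36, 12.52 and 12.28 at day 5. Only WT control replicate 1 (12.20) overlapped lesioned samples, those of day 5.

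The increases of Txnrd1 at days 2 and 5 were 0.53 ± 0.13 and 0.46 ± 0.13 in WT (adjusted p = 0.00898 and 0.0181) and 0.49 ± 0.13 and 0.41 ± 0.13 in KO (adjusted p = 0.0139 and 0.0380). The WT day 5 call was lost without day 5 replicate 1 or 3 or control replicate 3 or 4, and the KO day 5 call without day 5 replicate 2, 3 or 4 or control replicate 2 or 4. The KO day 2 call was lost without control replicate 2. In these settings, and in all others tried, the differences stayed above 0, between 0.34 and 0.66.

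Gclc was lower after lesion. This gene, which encodes the catalytic subunit of glutamate-cysteine ligase, the first enzyme of glutathione synthesis, had 10.69, 10.71, 10.67 and 10.58 in WT controls, 10.16, 10.11, 10.14 and 10.38 at day 2, and 10.01, 9.97, 10.17 and 9.79 at day 5. In KO ganglia it had 10.79, 10.66, 10.80 and 10.68 in controls, 10.03, 10.34, 10.60 and 10.10 at day 2, and 10.32, 9.94, 10.03 and 10.14 at day 5. Every lesioned sample was below every control of its genotype.

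Gclc fell by 0.47 ± 0.12 at day 2 and by 0.68 ± 0.12 at day 5 in WT (adjusted p = 0.0123 and 0.000399). In KO it fell by 0.46 ± 0.12 and by 0.62 ± 0.12 (adjusted p = 0.0121 and 0.00100), and without KO day 2 replicate 1 the KO call at day 2 did not hold (adjusted p = 0.0560). The day 5 values were 1.60-fold lower than control in WT and 1.54-fold lower in KO.

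Gclm, the regulatory subunit of the same enzyme, was measured by 2 probes in all samples. At the brighter probe the WT controls had 9.12, 8.75, 8.80 and 8.63 and the day 5 samples 8.55, 8.41, 8.64 and 8.20, and the KO controls had 9.37, 8.85, 9.07 and 8.63 and the day 5 samples 8.82, 8.07, 8.48 and 8.18. Control and lesioned samples overlapped in both genotypes. The day 5 difference was -0.37 ± 0.17 in WT (adjusted p = 0.187), and in KO Gclm fell by 0.59 ± 0.17 (adjusted p = 0.0263), a call lost without KO control replicate 1 or 3 or KO day 5 replicate 2 or 4. At the other probe both genotypes passed, with a fall of 0.54 ± 0.10 in WT (adjusted p = 0.00120) and of 0.57 ± 0.10 in KO (adjusted p = 0.000755), and no sample overlapped. At day 2 neither probe was called in either genotype.

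Slc7a11 encodes the cystine transporter that supplies cysteine for glutathione. At its brightest probe 5 of 24 samples, at most 1 of 4 in any group, were well above background, and at its 3 other probes 4, 0 and 0 samples. No difference is given for it, since its signal was mostly not above background in any group.

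Hmox1, the inducible heme oxygenase, was measured in all samples and was called in no comparison. It had 9.78, 9.62, 9.50 and 9.39 in WT controls, 9.39, 9.45, 9.89 and 7.10 at day 2, and 9.70, 9.09, 9.62 and 9.35 at day 5. Hmox1 in KO ganglia had 9.47, 9.43, 9.65 and 9.58 in controls, 9.70, 9.63, 10.18 and 9.34 at day 2, and 9.53, 9.43, 9.72 and 9.58 at day 5. All groups overlapped, and WT day 2 replicate 4 stood far below every other sample. Its spot, which carried no outlier flag, had a mean foreground of 253 where the other Cy5 channels had 869 to 1639.

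The Hmox1 difference at day 2 was -0.62 in WT (95% confidence interval -1.40 to 0.16, adjusted p = 0.371), and 0.00047 without that sample (adjusted p = 0.999). It was 0.18 in KO (-0.60 to 0.96). At day 5 it was -0.14 in WT (-0.92 to 0.65) and 0.03 in KO (-0.75 to 0.81). The intervals are wide, since that sample enters the variance that the groups share. The second Hmox1 probe exceeded the background clearly in 1 of 24 samples.

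Nqo1, a quinone reductase often used as an index of NRF2 activity, was lower at day 5. WT controls had 6.88, 6.86, 6.93 and 6.75, the day 2 samples 6.63, 6.64, 6.85 and 6.51, and the day 5 samples 6.05, 6.40, 6.52 and 6.55. Nqo1 in KO ganglia had 6.62, 6.86, 6.80 and 6.79 in controls, 6.84, 6.56, 6.61 and 6.83 at day 2, and 6.44, 6.33, 5.93 and 6.33 at day 5. Day 2 samples overlapped the controls and day 5 samples did not. Nqo1 fell by 0.48 ± 0.12 at day 5 in WT (adjusted p = 0.0121) and by 0.51 ± 0.12 in KO (adjusted p = 0.00854). The WT call was lost without day 5 replicate 1, the lowest of its group (adjusted p = 0.0581).

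**Figure D2:**
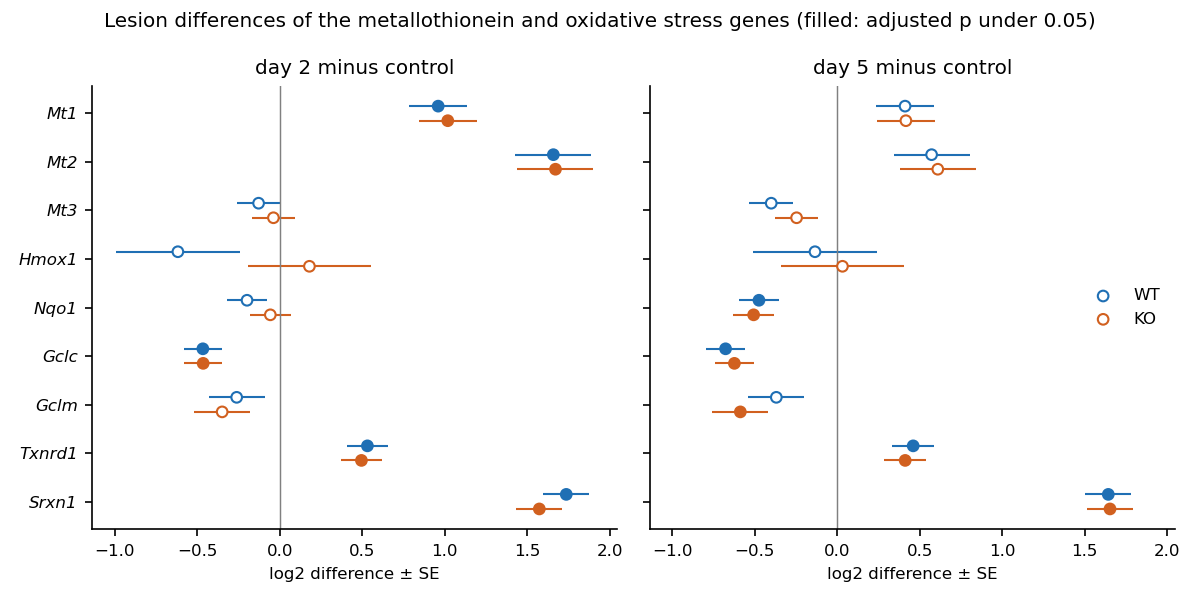
Log2 difference from control at day 2 (left) and day 5 (right) for 9 genes in WT (blue) and KO (orange), with its SE from limma; filled points have an adjusted p under 0.05. Srxn1 is at 1.57 to 1.74 in all 4 comparisons, Mt2 is at 1.66 and 1.67 at day 2 and at 0.57 and 0.61 at day 5, and Gclc lies below 0 throughout.

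Srxn1, Txnrd1, Gclc, Gclm, Nqo1 and Hmox1, all known targets of NRF2, were thus not all called in 1 direction at day 5. Srxn1 and Txnrd1 were higher in both genotypes, where 6.39% (WT) and 6.12% (KO) of all genes were higher. Nqo1 and Gclc were lower in both, where 7.35% and 6.62% of all genes were lower. Gclm was lower in KO alone at its brighter probe and in both genotypes at its other probe, and Hmox1 was not called. The part of NRF2 in these changes was not tested. The values of the genes called in a comparison had the same sign on every slide that held both of its groups. For Mt2 the day 2 difference was 1.66 and 1.58 on the slides with both WT groups and 1.16, 1.77 and 1.81 on those with both KO groups. For Srxn1 the corresponding values were 1.57 and 1.85 in WT and 1.15, 1.51 and 1.87 in KO.

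The comparison of genotypes asks whether these genes depended on NFIL3. No gene of the set differed between KO and WT in control ganglia (0% of all genes called), at day 2 (0.0073% called) or at day 5 (0.0109% called). None had an unadjusted limma p under 0.05, beside 463, 1068 and 650 of the 27398 genes in these 3 comparisons. With so few over the array, none among 10 genes tells little about this set. The paper reports genes whose lesion response differed in KO mice, from a SAM time course and limma, and SAM was not run here. No gene passed the limma F test for the interaction of lesion and genotype (0% of all genes called), with an unadjusted p of 0.305 as the smallest among the 10. These tests missed large differences too: at its brighter probe the deleted gene Nfil3 itself was not called in controls (-4.02 ± 0.81, adjusted p = 1.00) or in the interaction (adjusted p = 1.00), though it was called at day 2 (adjusted p = 0.0100) and day 5 (adjusted p = 0.00209). At that Nfil3 probe KO control replicate 4 had 7.66 where the other KO controls had 2.99 to 4.39. The SE of 0.81 there was larger than the 0.12 to 0.23 of the genes of the set other than Hmox1 and Slc7a11. Without Hmox1, the 24 differences of the 8 genes measured in all samples ran from -0.17 to 0.16, with 95% confidence intervals between -0.60 and 0.51. They come from the model without a slide term. Slides 1 and 2 each held 3 WT and 5 KO samples, and slide 3 held 6 WT and 2 KO samples. For Srxn1 the KO minus WT difference was 0.03 in controls (-0.26 to 0.32), -0.13 at day 2 (-0.42 to 0.16) and 0.04 at day 5 (-0.25 to 0.33). For Mt2 it was -0.12 (-0.60 to 0.36), -0.11 (-0.59 to 0.37) and -0.08 (-0.56 to 0.40). The largest value, 0.76 for Hmox1 at day 2 (-0.02 to 1.54, unadjusted p = 0.0569, adjusted p = 1.00), was in the group that held the low WT sample. With 4 samples a group, differences as large as the ends of these intervals were not excluded.

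**Figure D3:**
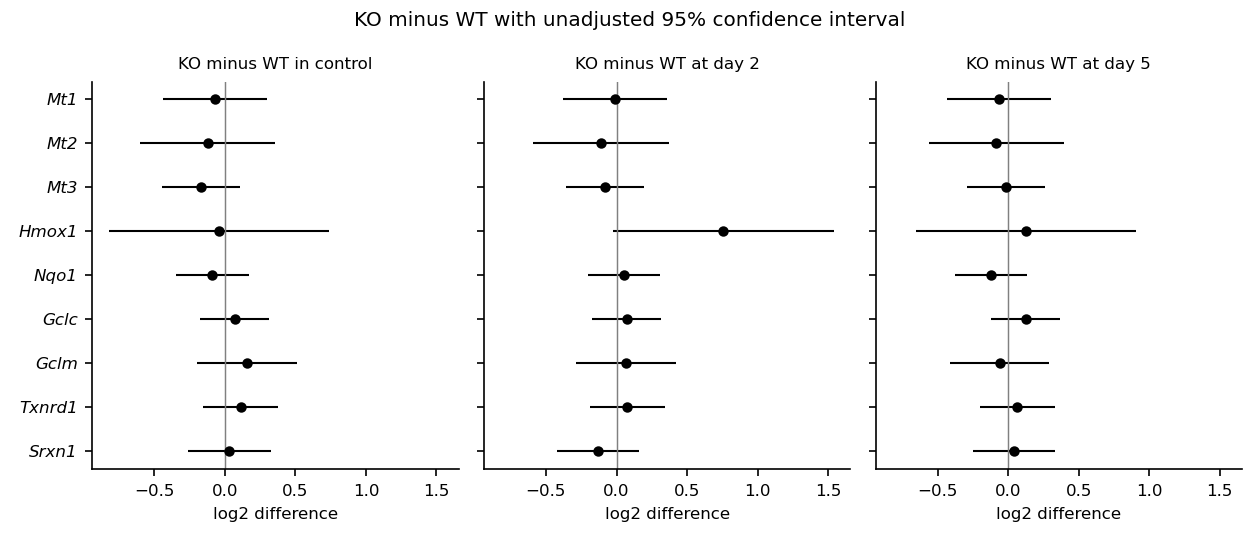
KO minus WT log2 difference of 9 genes in control ganglia and at days 2 and 5 after lesion, with unadjusted 95% confidence intervals from limma. All intervals include 0, and those of Hmox1, whose WT day 2 group has 1 sample at 7.10, are the widest.

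The genes around this set were read from 7 lists of pathway genes with 61 members on the array. Of these, 27 (44.3%) passed the lesion F test, beside 26.3% of all genes. Nearly all of the 61 were well above background in every sample, while all genes include many that were not. The share among genes of like signal was not computed, so no excess can be read from these shares. In WT, 10 were higher and 2 lower at day 2 and 9 higher and 6 lower at day 5, and in KO 11 were higher and 1 lower at day 2 and 11 higher and 5 lower at day 5. The shares called were 19.7%, 24.6%, 19.7% and 26.2%, beside 11.2%, 13.7%, 11.9% and 12.7% of all genes. The medians of the lists' log2 differences in those comparisons were 0.07, 0.04, 0.14 and 0.04.

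Among 9 regulators of NRF2, 6 (66.7%) passed the F test, beside 26.3% of all genes. Bach1, the repressor of antioxidant response elements, rose 2.47-fold at day 2 and 3.23-fold at day 5 in WT (adjusted p = 9.45e-06 and 1.70e-07) and 2.22-fold and 3.64-fold in KO (adjusted p = 4.35e-05 and 4.38e-08). Mafk, a small MAF that pairs with NRF2 or BACH1, rose at day 2 in WT (0.59, adjusted p = 0.0247) and KO (0.91, adjusted p = 0.000915) and at day 5 in KO (0.54, adjusted p = 0.0338), with 0.47 in WT at day 5 (adjusted p = 0.0669). Maff, another small MAF, rose by 0.80 at day 2 in KO (adjusted p = 0.00155) and had 0.34 in WT (adjusted p = 0.197). Nfe2l1, a relative of NRF2, was lower in all 4 comparisons by 0.45 to 0.53. The NRF2 gene Nfe2l2 passed the F test (adjusted p = 0.0261) with differences from 0.10 to 0.31, none of them called singly, and Keap1 also passed (adjusted p = 0.0498) with differences from -0.34 to -0.28.

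Of 14 further glutathione genes, 5 (35.7%) passed the F test, beside 26.3% of all genes. Gss, which encodes the second enzyme of glutathione synthesis, was 1 of them (adjusted p = 0.0429), with differences of 0.14 and 0.26 at day 2 and -0.01 and -0.07 at day 5 in WT and KO, none of them called singly. Chac1, which encodes an enzyme that breaks glutathione down, rose by 1.64 and 2.38 at days 2 and 5 in WT (3.12-fold and 5.22-fold, adjusted p = 5.13e-05 and 2.38e-07) and by 1.59 and 2.35 in KO (adjusted p = 6.94e-05 and 2.99e-07). Slc3a2, the heavy chain partner of the SLC7A11 transporter and of other amino acid transporters, rose by 0.32 to 0.41 in the 4 comparisons. The peroxidase genes Gpx3 and Gpx4 were lower at day 5, by 0.45 and 0.29 in WT and by 0.78 and 0.36 in KO. Gsr, which recycles oxidised glutathione, was called in none of the 4, with differences from -0.13 to 0.14.

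Among 11 thioredoxin and peroxiredoxin genes, 5 (45.5%) passed the F test, beside 26.3% of all genes. Peroxiredoxins reduce peroxides, and Prdx3, Prdx4 and Prdx6 were higher at day 5 in both genotypes, by 0.34 to 0.58. Txnip and Prdx2 passed only the F test. Prdx1, a classical substrate of sulfiredoxin, had differences from 0.12 to 0.18 and was not called. Of 6 NADPH genes, 2 (33.3%) passed the F test. These, G6pdx and Taldo1 of the pentose phosphate pathway, were higher in all 4 comparisons, G6pdx by 0.55 to 0.59 and Taldo1 by 0.36 to 0.63. Among the 4 genes of superoxide and peroxide removal, Sod1 was lower in WT at day 5 (-0.30, adjusted p = 0.0471), and Sod3 passed only the F test.

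Of 13 genes of metal and heme handling, 3 (23.1%) passed the F test, no larger a share than the 26.3% of all genes. The zinc importer Slc39a1 rose by 0.51 and 0.54 at day 2 in WT and KO, and Ftl1, the ferritin light chain, by 0.55 and 0.51. Hmox2, the constitutive heme oxygenase, was lower by 0.40 at day 2 in WT and by 0.32 and 0.34 at day 5 in WT and KO. Mtf1, which encodes the metal sensor of the metallothionein promoters, was not called after lesion, with differences from 0.06 to 0.15. The paper lists Mtf1 among the genes whose lesion response differed in KO mice. Here 0% of all genes were called in the interaction of lesion and genotype, and the paper's SAM time course was not run. Of 4 glucocorticoid-induced genes on the array, Per1 rose in all 4 comparisons, by 0.60 to 1.02, whereas Tsc22d3 fell by 0.53 and 0.55 at day 5 in WT and KO, and Fkbp5 and Sgk1 passed only the F test.

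**Figure D4:**
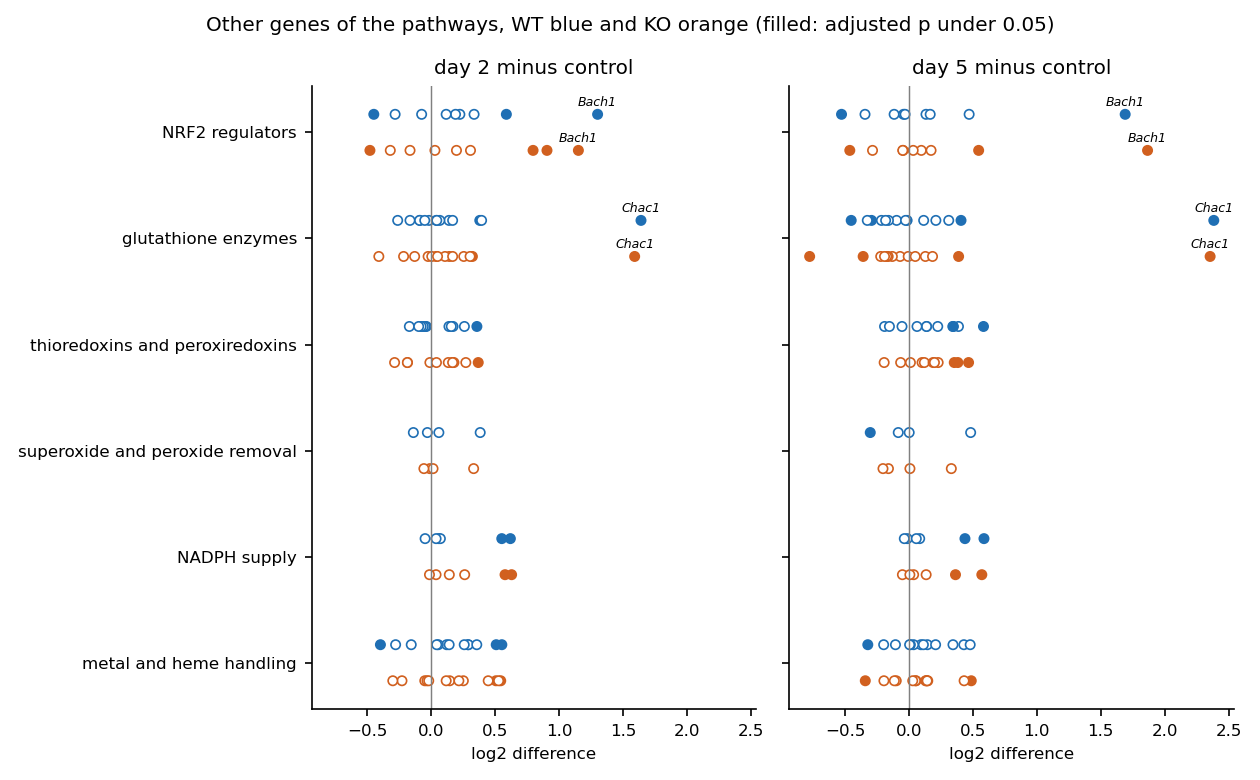
Log2 difference from control of the genes in 6 pathway lists at day 2 (left) and day 5 (right), each point 1 gene, WT blue and KO orange; filled points have an adjusted p under 0.05 and genes called with a difference over 1 in size are named. Bach1 and Chac1 stand apart, at 1.15 to 1.87 and 1.59 to 2.38, from other genes of their lists.

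Markers of 3 of 9 cell types, macrophages, sensory neurons and satellite glia, included genes called in the 4 comparisons with control. In the lesion F test all 9 macrophage, all 9 sensory neuron and 4 of 6 satellite glia markers passed. So did 1 of 5 Schwann cell, 1 of 3 endothelial and 1 of 4 fibroblast markers, beside 26.3% of all genes. All 9 macrophage markers on the array were higher at day 5, with medians of 1.64 in WT and 1.51 in KO, and 3 of 9 were higher at day 2 in each genotype. Of all genes, 5.15% and 5.51% were higher at day 2 and 6.39% and 6.12% at day 5 in WT and KO. The mean log2 level over the 9 ran from 6.97 to 7.60 in WT controls, 7.62 to 8.28 at day 2 and 8.74 to 9.10 at day 5, and from 6.99 to 7.49, 7.32 to 8.29 and 8.55 to 8.86 in KO. Mt1 and Mt2 were highest at day 2 and the macrophage markers at day 5. The part of macrophages in the changes of the stress genes was not tested.

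Of 9 sensory neuron markers, 5 were lower and none higher in WT at day 2, 5 lower and 1 higher (Tubb3) in each genotype at day 5, and 4 lower in KO at day 2. Of all genes, 6% and 6.36% were lower at day 2 and 7.35% and 6.62% at day 5 in WT and KO. Their mean log2 level was 13.35 to 13.68 in controls of both genotypes and 12.81 to 13.26 after lesion. Nqo1, Gclc and Gclm were lower at day 5 too, and the part of the neuron markers in that was not tested. Among 6 satellite glia markers Glul was higher in all 4 comparisons while Fabp7 and Gja1 were lower at day 2 in both genotypes and S100b was lower at day 5 in WT. None of the 5 neutrophil, 5 Schwann cell, 3 endothelial, 3 red blood cell, 4 fibroblast and 3 muscle markers was called in the 4 comparisons. Of these, Pmp22, Pecam1 and Lum passed only the F test (adjusted p = 0.0377, 0.0312 and 0.0333). The mean level of the neutrophil markers varied widely between samples of a group, from 8.77 to 12.20 in WT at day 5. The tissue label names DRG neurons, while every marker of these 9 cell types that was on the array was well above background in some samples.

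Across the 24 samples, the genes with the most similar pattern were found by Pearson correlation among 14484 genes that were well above background in all samples. The samples share the lesion groups, so these values are descriptions. Mt1 and Mt2 were nearest to each other (r = 0.974), followed for Mt2 by Saa1 (0.956), an acute-phase protein gene, and Map3k6 (0.946), and for Mt1 by Map3k6 (0.940) and Ggct (0.919), an enzyme of the gamma-glutamyl cycle. Srxn1 was nearest to Arhgef15 (0.992), Pfkfb4 (0.987) and Jun (0.987), the AP-1 subunit gene. Gclc was nearest to Dync1i1 (0.973), a dynein intermediate chain gene, and Txnrd1 to Neto2 (0.930). The nearest genes of Mt3, Gng8 (0.803), and Nqo1, Htr3a (0.843), which encodes a serotonin receptor subunit, were less alike than these. For Gclm the nearest was Fstl1 (0.897), and for Hmox1, where 1 sample lies far from the rest, Sertad3 (0.917).

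Reference windows of 300 bases, 250 before and 50 after a listed start, were found for 8 of the 10 genes, 10 windows in all, and none for Hmox1 and Gclc. Both strands were searched. Of 32851 windows of all genes, 51% held the wide metal response element core TGCNCNC, 25.7% its narrower forms TGCACNC or TGCGCNC, 12.4% the antioxidant response element core TGACNNNGC and 7.81% the AP-1 site TGANTCA. The narrower metal response element core was found in Mt1 at 3 places, 1 of them upstream and shown in capitals above, and in Mt2 at 4, of which 3 lie upstream. Mt3, which did not rise, had 1, after the start, Gclm had 3 and Srxn1 had 1. The antioxidant response element core was found in Mt2, Gclm, Srxn1 and 1 of 3 Txnrd1 windows, and not in those of Nqo1 or Slc7a11. The AP-1 site was found in Mt2 and, at 2 places, in Srxn1. A site of NFIL3 itself, held by 1.06% of all windows, was in none of the 10.

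**Figure D5:**
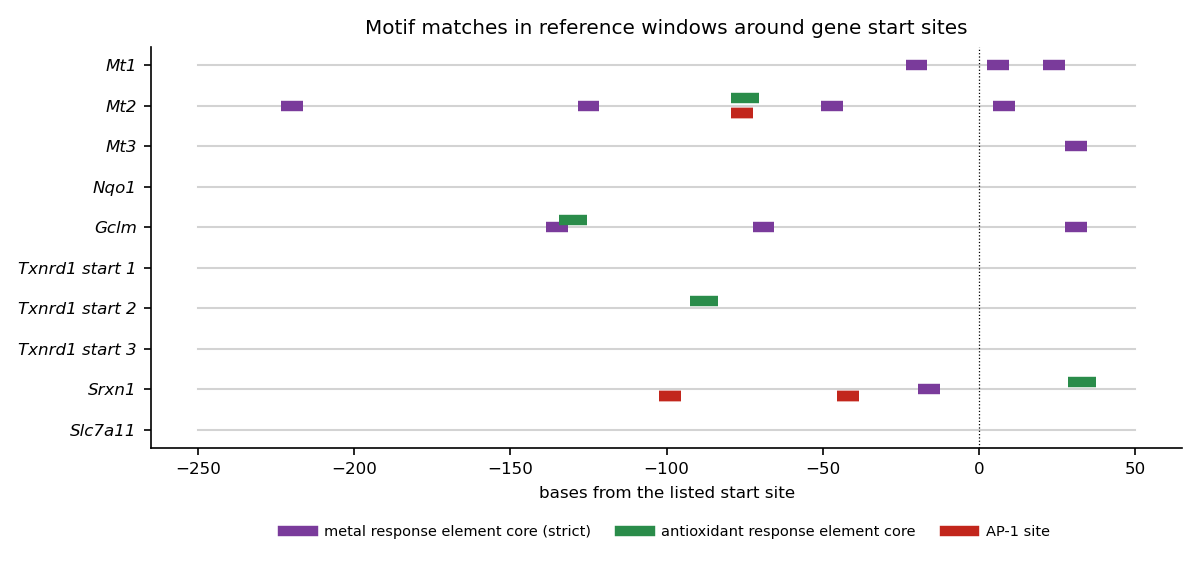
Matches to the narrower metal response element core (purple), the antioxidant response element core (green) and the AP-1 site (red) in 10 reference windows of 8 genes, by distance in bases from the listed start (dotted line); bars are drawn to length and offset where they overlap. Mt2 has 3 metal response element cores before the start and Srxn1 has 2 AP-1 sites.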

How the data were processed

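RNA from 24 DRG samples was hybridised on 12 Agilent mouse arrays (3 slides of 4), a different sample in each dye, scanned and quantified by the authors (Feature Extraction 10.7.3.1). The deposited files hold spot intensity on a linear scale, not normalized, with probe positions on mm9. As the study's methods state, the channels were treated as single-colour data, background-corrected (Edwards, mean foreground against median background), quantile-normalized and put on the log2 scale in limma 3.58.1 (R 4.3.3). Control spots and spots flagged as outliers were left out (417 probe values missing), and spots of a probe were averaged. One linear model with a mean per group was fitted to all samples, with Benjamini-Hochberg adjustment over all probes. It was tested on simulated data. The brightest probe stood for a gene. The number of samples limits the precision. Names were taken from the 10 genes and their probes, listed pathway genes that passed the lesion F test, marker genes, and up to 3 nearest genes for each of the 10. Gsr, Prdx1 and Mtf1, which did not pass, were named after their values were seen. The genes and lists were chosen with earlier results of these data known. Alternatives covered background correction, normalization, filters, probe choice, slide, array, dye and replicate terms, and each sample left out in turn. Reference sequences are from RefSeq (GRCm38.p6).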

Additional observations from a re-analysis of the deposited data

Results flagged for a closer look

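Of 54 sets of 4 samples (9 genes in 6 groups), 4 held a sample whose gap to the nearest of the others took up more of the range than the Dixon limit allows, and chance marks about 1 in 20. Gclm in WT day 2 replicate 3 was 8.32 where the others had 8.62 to 8.68. Mt1 in KO control replicate 1 was 12.18 where the others had 12.71 to 12.73. Srxn1 in KO day 2 replicate 3 was 14.60 where the others had 15.18 to 15.29, and in KO day 5 replicate 1 it was 14.76 where the others had 15.23 to 15.32. All of these Srxn1 values still lay above every control sample.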

How the results depend on the processing

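Over 38 alternatives, none of the 36 lesion differences of the 9 measured genes changed sign while called, and 8 values changed sign between values that were called in neither. The calls of Srxn1 in all 4 comparisons, of Mt2 at day 2 and of Gclc at day 5 were kept in every alternative. With the slide as a block, 7 genes in place of 4 were called in WT at day 5, 6 in place of 5 in KO at day 5, with Mt2 among them in both (adjusted p = 0.0402 and 0.0433), and 0 in place of 1 between WT days 5 and 2. Leaving out 1 sample at a time, the number called ran from 7 to 8 in the lesion F test, was 5 throughout in WT at day 2, ran from 4 to 5 in KO at day 2, from 2 (without WT day 5 replicate 1) to 5 in WT at day 5, from 3 (without KO day 5 replicate 2 or 4) to 5 in KO at day 5, from 0 to 1 between WT days and from 0 to 2 between KO days. No gene was called between genotypes or in the interaction under any alternative. The share of all genes called was not recorded for the alternatives. Changes in these counts therefore cannot be told apart from changes over the whole array. Mt3 in WT at day 5 passed in 12 of the 38 alternatives. Replicate numbers gave no uniform pairing: 6 of 16 same-numbered pairs correlated above 0.1, from -0.39 to 0.59, and 4 correlated best with their own number. KO day 5 replicates 1, 2 and 3 were among those 4 (0.35, 0.26 and 0.34). Same-numbered samples shared a dye, and of the 6 pairs above 0.1 all but KO day 5 replicate 2 also shared a slide. In those pairs a shared slide and a shared animal cannot be told apart. Correlations of this kind cannot exclude that some samples came from the same animal. With the replicate block the counts were 8 in the lesion F test, 5 and 4 in WT and 5 and 5 in KO at days 2 and 5, as without it. With 4 samples a group and probes such as Slc7a11 near background, small changes could not be seen.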
